A study of Mus musculus with 2 samples.

Results

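Cathepsins are proteases of the endosome and lysosome, and 10 mouse genes of this name were followed in macrophage nuclear RNA: Ctsa, Ctsb, Ctsc, Ctsd, Ctse, Ctsh, Ctsk, Ctsl, Ctss and Ctsz. They were taken by gene symbol, and with earlier results of these data known, from 55536 annotated genes, of which 22028 are protein-coding. The material was nucleoplasmic RNA, depleted of ribosomal RNA, from macrophages that had been grown in culture from the bone marrow of C57BL/6J mice. Before harvest all cells were primed with 100 ng/ml Lipid A for 12 h and then washed free of it for another 12 h. They were collected at 0 min of a second exposure. Lipid A is the lipid anchor of bacterial lipopolysaccharide and the ligand of Toll-like receptor 4. There is 1 group with biological replicates 1 and 2, which are separate biosamples under the same donor label. Whether they came from different animals is not stated. The library of replicate 1 was made from 1 µg of RNA and that of replicate 2 from 500 ng, so starting amount and replicate number cannot be told apart. Only this group was analysed here: the values are levels and their spread, not effects of Lipid A, and no test between conditions was made.

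Cathepsins are made as inactive precursors, reach the lysosome largely through mannose 6-phosphate receptors and are cleaved to their active form in acid compartments. Most are cysteine proteases of the papain family (Ctsb, Ctsc, Ctsh, Ctsk, Ctsl, Ctss and Ctsz), Ctsd and Ctse are aspartic proteases, and Ctsa is a serine carboxypeptidase. In macrophages they digest engulfed material, trim the invariant chain and antigens for presentation by major histocompatibility complex class II, and cut endosomal Toll-like receptors to their signalling form.

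The libraries held 22907877 (replicate 1) and 18612405 (replicate 2) expected counts in annotated genes. All 10 macrophage markers examined had a TPM (an abundance corrected for transcript length and scaled to the same total in each library) of at least 10 in both libraries, and their TPM summed to 3624 in replicate 1 and 2954 in replicate 2. Of the markers of neutrophils, dendritic cells, T and B cells, stroma and mast cells, none reached 1 TPM in both libraries. Their summed levels were 1.39 and 1.76 TPM for neutrophils and 1.84 and 1.93 TPM for dendritic cells in replicates 1 and 2. They were 0.13 and 0.15 TPM for T and B cells, 0.27 and 0.25 TPM for stroma, and 0.51 and 1.13 TPM for mast cells. Levels are given from the gene-level tables, made from alignments, and, where named, from a second quantification of the same libraries made from the reads directly.

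Of the cathepsin genes, 8 were abundant, while Ctsk and Ctse were close to absent. At least 10 TPM in both libraries was reached by 8 of 10 cathepsin genes, against 19.7% of protein-coding genes, and at least 100 TPM by 7 of 10, against 1.24%. The count at 100 TPM moved with the scale: it was 5 of 10 in the second quantification, against 0.599%, and 8 of 10 with TPM rescaled to a total over protein-coding genes, against 6.83%. The count at 10 TPM stayed at 8 of 10 on both, against 14.01% and 36.4% of protein-coding genes. Summed over the family, cathepsin RNA made up 2.17% of protein-coding TPM in replicate 1 and 1.38% in replicate 2. The cysteine cathepsins held 66.7% of the family's TPM in replicate 1 and 61.9% in replicate 2. The aspartic cathepsins held 28.4% and 32.2%, nearly all of it Ctsd, and the serine protease Ctsa held 4.93% and 5.91%. Ctsd, Ctsb and Ctss alone made up 76.6% of the family in replicate 1 and 77.2% in replicate 2.

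**Figure D1:**
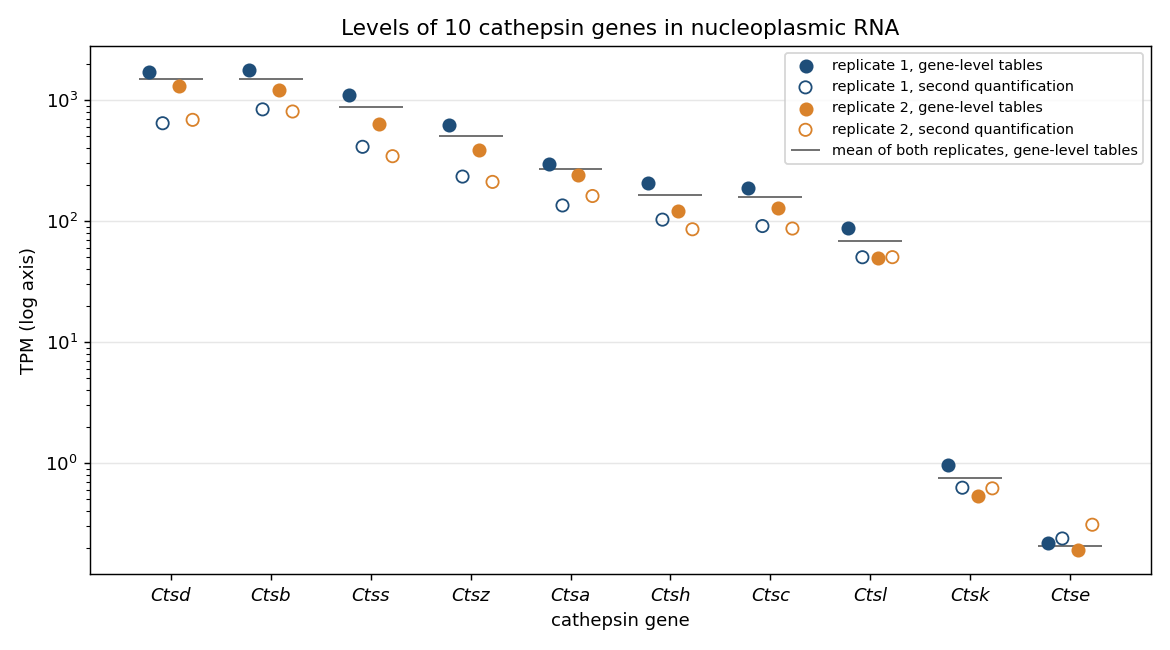
TPM on a log axis for each cathepsin gene, with replicate 1 left of replicate 2, filled points for the gene-level tables, open points for a second quantification and a line at the mean of the filled points. The 8 abundant genes lie between 49.9 and 1775 TPM in the gene-level tables, and Ctsk and Ctse lie below 1 TPM.

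Among the aspartic cathepsins, Ctsd, the main aspartic endopeptidase of lysosomes, had the highest mean of the family (ENSMUSG00000007891.16, mm10 chr7:142375911-142388038, minus strand). It had 1695 and 1315 TPM in replicates 1 and 2, a mean of 1505 ± 269 TPM (SD, n = 2), from 88401 and 58371 expected counts. By mean TPM it ranked 13 among protein-coding genes. Ctsd overlaps Gm49369, a protein-coding gene annotated on the same strand (chr7:142371096-142382667), which had 389 and 653 TPM in replicates 1 and 2. Gm49369 took 7.11% of the summed counts of the pair in replicate 1 and 14.5% in replicate 2, so how reads were divided between them bears on both values. Ctse, a nonlysosomal aspartic protease of endosomes (ENSMUSG00000004552.16, chr1:131638306-131675505, plus strand), was at the other end of the family. It had 0.22 and 0.19 TPM in replicates 1 and 2, from 12 and 9 counts.

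The cysteine cathepsins covered the whole range of levels. The codon of the catalytic cysteine that defines this class is shown in capitals within 30 bases of coding sequence, 5′ to 3′, from the protein-coding transcript with the highest mean TPM of each gene (GENCODE M21, GRCm38). The windows of Ctsb and Ctsc each span an intron in the genome. The codon is TGT in Ctsb, Ctsk and Ctsl and TGC in the other 4 genes.
Ctsb, chr14:63135702-63136415, plus strand: ggctcctgcggctctTGTtgggcatttggg
Ctss, chr3:95545333-95545362, plus strand: ggttcttgtggtgccTGCtgggctttcagt
Ctsz, chr2:174438184-174438213, minus strand: cagtactgtggttccTGCtgggcccacggc
Ctsh, chr9:90064507-90064536, plus strand: ggggcctgtggcagcTGCtggactttctct
Ctsc, chr7:88302300-88308041, plus strand: gaatcttgtggaagcTGCtactcatttgcc
Ctsl, chr13:64367063-64367092, minus strand: ggccagtgcgggtctTGTtgggcgtttagc
Ctsk, chr3:95502582-95502611, plus strand: ggccagtgtggttccTGTtgggctttcagc

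Ctsb, a lysosomal protease that cuts both within chains and at their carboxy end, matched Ctsd in level (ENSMUSG00000021939.8, chr14:63122462-63145923, plus strand). It had 1775 and 1203 TPM in replicates 1 and 2 (mean 1489 ± 404 TPM, SD, n = 2). Ctsb was above Ctsd in replicate 1 and below it in replicate 2, so the order of these genes was within the spread between replicates. With 192008 and 122787 counts it was the most deeply covered member, but Ctsb overlaps Fdft1 on the opposite strand.

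Ctss, the protease that completes removal of the invariant chain in antigen-presenting cells, came next (ENSMUSG00000038642.10, chr3:95526786-95556403, plus strand). It had 1105 and 635 TPM in replicates 1 and 2 (mean 870 ± 332 TPM, SD, n = 2), and its values did not overlap those of Ctsb. Ctsz, a carboxypeptidase also called cathepsin X (ENSMUSG00000016256.10, chr2:174427493-174439039, minus strand), had 619 and 389 TPM in replicates 1 and 2 (mean 504 ± 162 TPM). Ctsz lay below Ctss in each library, by 1.78-fold in replicate 1 and 1.63-fold in replicate 2.

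Ctsh, an aminopeptidase (ENSMUSG00000032359.14, chr9:90054152-90076089, plus strand), had 205 and 121 TPM in replicates 1 and 2 (mean 163 ± 59.3 TPM, SD, n = 2). Ctsc, the dipeptidyl peptidase that activates granule serine proteases (ENSMUSG00000030560.17, chr7:88278085-88310888, plus strand), had 189 and 129 TPM in replicates 1 and 2 (mean 159 ± 42.5 TPM). Ctsh was above Ctsc in replicate 1 and below it in replicate 2, so their order was not resolved. The granule proteases that Ctsc is known to process were near 0: none of the 6 listed reached 1 TPM in either library, and their sums were 0.17 TPM (replicate 1) and 0.58 TPM (replicate 2). The highest of them, Prtn3, had 0.06 and 0.39 TPM in replicates 1 and 2.

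Ctsl, a lysosomal endopeptidase known in mouse for invariant chain processing in thymic epithelium (ENSMUSG00000021477.9, chr13:64359337-64370890, minus strand), was the lowest of the 8 abundant genes. It had 88.1 and 49.9 TPM in replicates 1 and 2 (mean 69.0 ± 27.1 TPM, SD, n = 2), from 3717 and 1899 counts. Ctsl encloses an antisense gene and a processed pseudogene, neither of which exceeded 0.27 TPM.

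Ctsk, the collagen-degrading protease of osteoclasts (ENSMUSG00000028111.4, chr3:95499256-95509362, plus strand), had 0.97 and 0.53 TPM in replicates 1 and 2, from 36 and 17 counts. It lies 17423 bases from Ctss on the same strand. TPM of Ctss was 1139 times that of Ctsk in replicate 1 and 1199 times in replicate 2, where Ctsk rests on few counts. In the second quantification the folds were 658 and 557. Of 6 osteoclast markers, Acp5, the tartrate-resistant acid phosphatase, had 5.98 and 2.47 TPM in replicates 1 and 2, and the other 5 stayed below 1 TPM in both. Calcr, a defining osteoclast marker, had no count. Ocstamp, another, also had none in the gene-level tables, but 0.991 and 1.13 TPM in the second quantification, in which Ctsk had 0.625 and 0.617 TPM.

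Ctsa, the serine carboxypeptidase also known as protective protein for its stabilising role in the complex with Glb1 and Neu1, followed Ctsz in level (ENSMUSG00000017760.16, chr2:164832873-164841032, plus strand). It had 295 and 241 TPM in replicates 1 and 2 (mean 268 ± 37.7 TPM, SD, n = 2), from 12054 and 8182 counts. Its partners were lower: Neu1, the lysosomal sialidase, had 32.8 and 24.6 TPM in replicates 1 and 2, and Glb1, the lysosomal beta-galactosidase, had 21.6 and 15.3 TPM. Ctsa overlaps Pltp on the opposite strand, a gene with 192 TPM in replicate 1 and 73.7 TPM in replicate 2. Since the use of strand in counting is not given in the sources used here, reads of the shared stretch cannot be assigned with certainty.

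The transcripts of the family differed in kind. The transcript with the highest mean TPM was protein-coding for 9 of the 10 genes (Ctsa-202, Ctsb-201, Ctsc-201, Ctsd-202, Ctse-201, Ctsk-201, Ctsl-201, Ctss-202 and Ctsz-201). The exception was Ctsh, whose leading transcript, Ctsh-202, is annotated as a target of nonsense-mediated decay, the pathway that degrades RNAs with an early stop codon. Ctsh-202 had 103 and 74.7 TPM in replicates 1 and 2, against 52.0 and 14.1 TPM for the full-length coding transcript Ctsh-201. Ctsh-202 lacks exon 3 of Ctsh-201 (chr9:90061519-90061624), whose 106 bases are not a multiple of 3. Reading on from the new junction meets a stop codon after 6 bases, so that 41 codons precede the stop, against 333 in Ctsh-201. Both transcripts are shown from the last 24 bases of exon 2 to the first 24 bases after exon 3, with exon 3 in capitals in Ctsh-201 and the stop codon in capitals in Ctsh-202 (chr9:90060487-90062740, plus strand, GENCODE M21, GRCm38).
Ctsh-201: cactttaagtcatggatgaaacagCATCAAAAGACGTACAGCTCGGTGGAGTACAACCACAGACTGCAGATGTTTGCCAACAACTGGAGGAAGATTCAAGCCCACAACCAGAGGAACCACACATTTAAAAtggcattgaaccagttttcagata
Ctsh-202: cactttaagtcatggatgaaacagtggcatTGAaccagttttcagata

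Ctsh-202 was above Ctsh-201 in both libraries under both quantifications. It made up 50.4% of the TPM of Ctsh in replicate 1 and 61.6% in replicate 2 in the transcript tables, and 33.2% and 41.1% in the second quantification. In the transcript tables, a share above 50% in both libraries was found for 26 of 1521 protein-coding genes with such a transcript, or 1.71%. In the second quantification 18 genes passed 50% in both libraries, and Ctsh did not. The protein-coding transcripts of Ctsh held 25.8% of its TPM in replicate 1 and 12.5% in replicate 2. These shares are estimates, because the transcripts share exons.

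Ctss and Ctsd were each divided between coding transcripts whose coding sequences differ by a short stretch. Ctss-202 had 914 and 520 TPM in replicates 1 and 2, above Ctss-201 with 191 and 115 TPM. The second quantification gave the same order, with 333 and 271 TPM for Ctss-202 and 78.0 and 72.3 TPM for Ctss-201. They differ by 3 coding bases at the start of exon 2, in capitals below, and by 3 bases at the end of the transcript (chr3:95526911-95529451, plus strand).
Ctss-201: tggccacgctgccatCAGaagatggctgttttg
Ctss-202: tggccacgctgccataagatggctgttttg

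Ctsd-202 had 1072 and 765 TPM in replicates 1 and 2, and Ctsd-201 had 596 and 535 TPM. In the second quantification Ctsd-202 had 542 and 341 TPM, while Ctsd-201 had 78.2 and 321 TPM in replicates 1 and 2. The division between the Ctsd transcripts in replicate 1 therefore depended on the quantification. Ctsd-202 begins 181 bases further upstream and ends 6 bases further downstream than Ctsd-201. It also holds 18 additional coding bases, in capitals (chr7:142377156-142377365, minus strand).
Ctsd-202: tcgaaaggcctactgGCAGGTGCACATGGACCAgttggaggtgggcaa
Ctsd-201: tcgaaaggcctactggttggaggtgggcaa

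Transcripts annotated as retaining an intron cannot be told apart, in these tables, from precursors not yet spliced. Of the 8 abundant genes, 6 have such a transcript. Its share was highest in Ctsa, at 34.2% of the gene's TPM in replicate 1 and 36.3% in replicate 2, followed by Ctsh at 23.8% and 25.9%. Ctsb had 21.03% in replicate 1 and 10.2% in replicate 2, Ctsc 14.1% and 16.4%, Ctsl 2.71% and 3.77%, and Ctsd 1.60% and 1.19%. As a share of expected counts Ctsh was above Ctsa, with 20.3% and 30.7% in replicates 1 and 2 against 8.51% and 11.0%. The difference in TPM share within Ctsb came with Ctsb-202, which had 194 and 27.6 TPM in replicates 1 and 2. In the second quantification Ctsb-202 had 265 and 205 TPM, so the size of this difference depended on the quantification. The median over the 6 cathepsin genes was 15.4% ± 3.01 (SD, n = 2 libraries), against 30.3% ± 1.10 over 3107 protein-coding genes at the same minimum of 10 TPM. The second quantification did not show this gap: the medians were 34.1% ± 0.696 for the cathepsin genes and 34.8% ± 0.514 for the protein-coding genes.

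**Figure D2:**
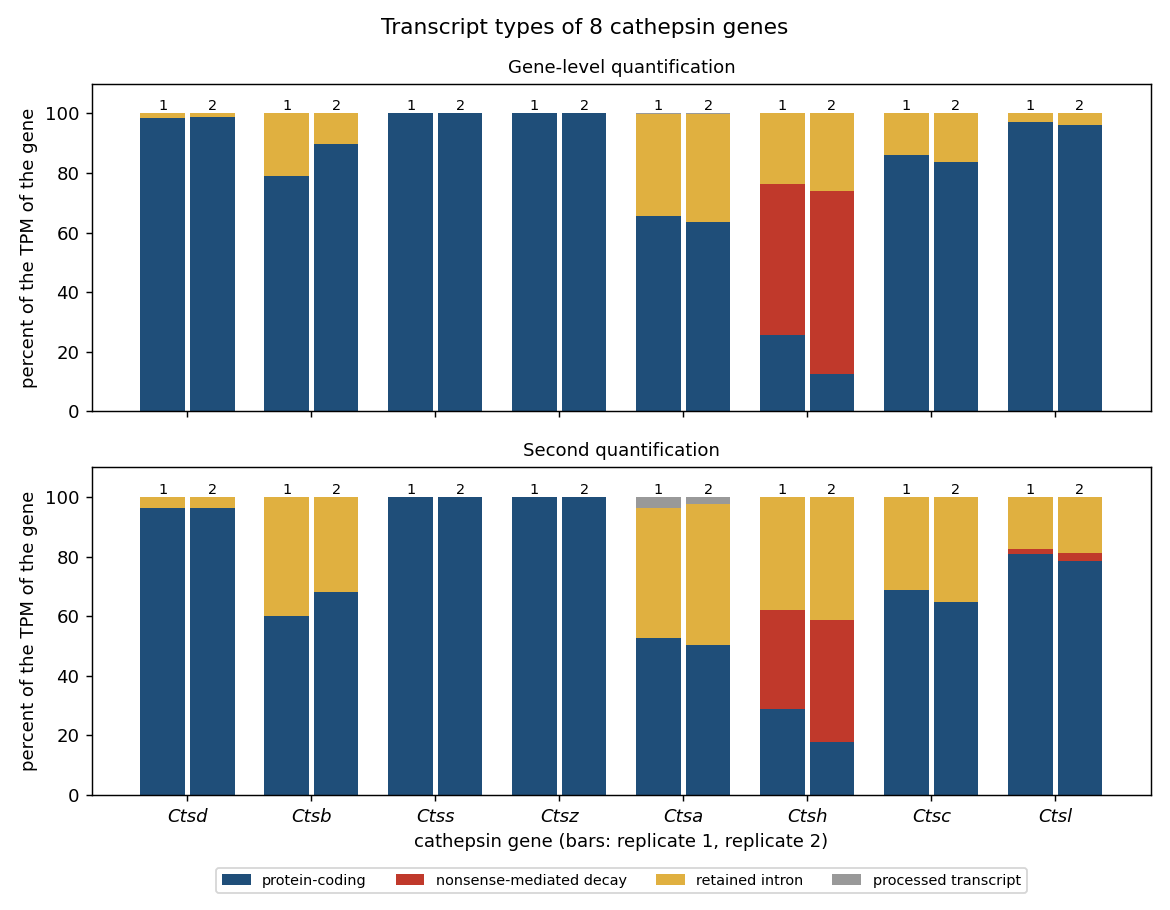
Percent of each gene's TPM by annotated transcript type for the 8 abundant cathepsin genes, with replicate 1 left of replicate 2, in the gene-level quantification (top) and the second quantification (bottom). Ctsh shows a large nonsense-mediated decay share, 50.4% and 61.6% in the top panel and 33.2% and 41.1% in the bottom one.

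**Figure D3:**
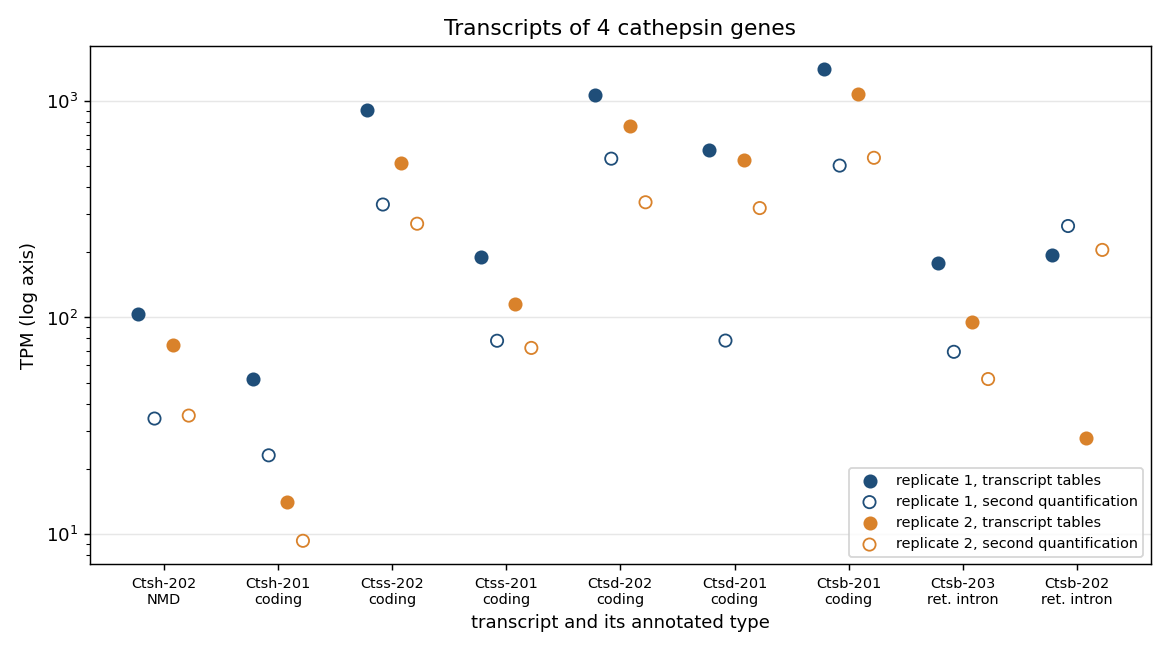
TPM on a log axis of single transcripts of Ctsh, Ctss, Ctsd and Ctsb, with replicate 1 left of replicate 2, filled points for the transcript tables and open points for the second quantification. Ctsh-202 and Ctss-202 lie above the Ctsh-201 and Ctss-201 transcripts throughout, whereas Ctsd-201 in replicate 1 and Ctsb-202 in replicate 2 move with the quantification.

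Cathepsin RNA was higher in replicate 1 than in replicate 2 for all 10 genes in the gene-level tables. After TMM scaling, which corrects for library composition, the log2 ratio of replicate 1 over replicate 2 was 0.76 for Ctss, with an exact 95% counting interval from 0.74 to 0.79. It was 0.71 for Ctsl, 0.65 for Ctsh, 0.63 for Ctsz and 0.55 for Ctsc. Ctsb followed with 0.39, Ctsd with 0.34 and Ctsa with 0.30, and the counting intervals of these 8 genes excluded 0. For Ctsk and Ctse the intervals, from -0.04 to 1.75 and from -1.21 to 1.59, were too wide to give a direction. A mean count of at least 100 was reached by 8 of the 10, leaving out Ctsk and Ctse, and 8 of 8 were higher in replicate 1, against 50.8% of 10198 genes. An absolute log2 ratio of 1 or more was reached by 0 of the 8, against 2.00% of those genes. The median of the 10 cathepsin genes was 0.59, against 0.01 over those genes, the middle 80% of which lay between -0.40 and 0.45. Counts of the second quantification gave positive log2 ratios for all 10 as well, with a median of 0.50. On those counts 5665 of the 10198 genes were higher in replicate 1, with a median of 0.03. Its TPM, which carries no such scaling, was lower in replicate 1 for Ctsd (644 against 687 TPM in replicate 2), Ctsa (135 against 161 TPM) and Ctse (0.238 against 0.309 TPM), and level for Ctsl (50.2 and 50.3 TPM). Rescaled over protein-coding genes, a step chosen after seeing the data, these genes were all higher in replicate 1. Ctsd then had 4303 and 3243 TPM in replicates 1 and 2, and Ctsa 900 and 761 TPM. Ctse had 1.59 and 1.46 TPM, and Ctsl 336 and 238 TPM. With 1 library on each side the intervals cover counting error only, and the difference between libraries has no replicate check.

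**Figure D4:**
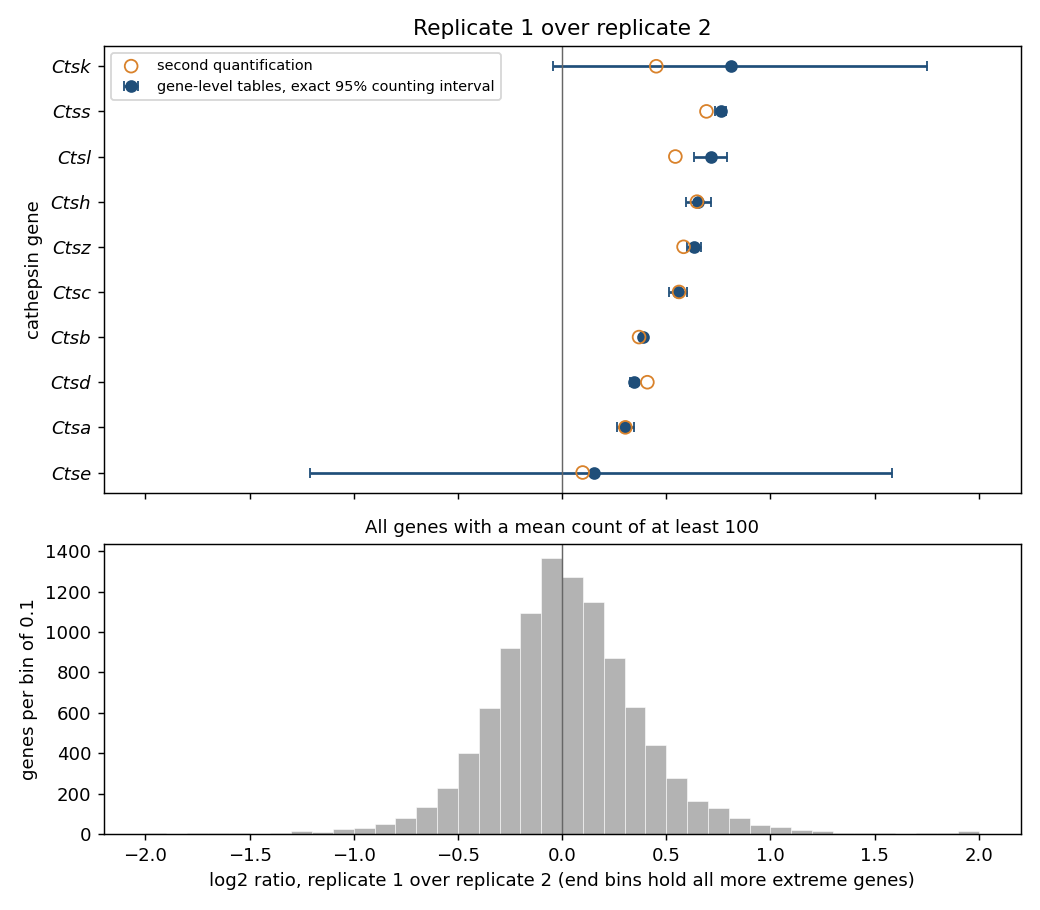
Top, log2 ratio of replicate 1 over replicate 2 for each cathepsin gene with its exact 95% counting interval (filled) and in the second quantification (open). Bottom, number of genes per bin of the same ratio over the 10198 genes whose mean count reached 100, where the cathepsin genes with narrow intervals fall to the right of the centre, between 0.30 and 0.76.

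Other genes of these cells were also higher in replicate 1. This held for all 10 macrophage markers (median log2 ratio 0.32) and for all 12 genes of antigen processing and endosomal sensing (median 0.51), though not for Ifi30 by the second quantification. Of the list for sorting and maturation of lysosomal enzymes, which also holds other lysosomal genes, 10 of 12 were higher in replicate 1 (median 0.32). Of the regulators of lysosomal genes it was 2 of 5 (median -0.10). Among protease inhibitors whose counts averaged 100 or more, 5 of 6 were higher in replicate 1. Their median of 0.68 was above the cathepsin median of 0.59. By the second quantification, 6 of 6 were higher, with a median of 0.65. The 8 abundant cathepsin genes, which also meet that count, had a median of 0.55 there, or 0.50 with Ctsk and Ctse included. For comparison, 50.8% of the 10198 genes were higher in replicate 1 in the gene-level tables. By the second quantification, 5665 of the 10198 were. Whether marker levels or the amount of starting RNA bear on the cathepsin ratios was not tested. In bulk RNA, fewer cells of a type and less RNA per cell cannot be told apart. Gm49369, which overlaps Ctsd, went the other way with a log2 ratio of -0.80 (-1.38 in the second quantification), and the summed counts of the pair gave 0.22.

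The promoters of the family differ in a motif that can be read by the MiT/TFE transcription factors, which drive lysosomal genes. Binding was not tested. RefSeq windows of 250 bases before to 50 bases after the start (GRCm38.p6) were matched for 7 of the 10 genes, in 8 windows: Ctsa, Ctsc, Ctsd, Ctsk, Ctsl, Ctss and Ctsz. The palindrome CACGTG reads the same on both strands. It occurred in 3 of the 8 windows (Ctsa, Ctsd and Ctsl), against 7.15% of all 32851 windows. The longer palindrome TCACGTGA, which contains it, occurred in 2 of the 8 windows (Ctsa and Ctsd), against 0.974% of all windows. In Ctsa, both matches are of the longer form and lay in the downstream window. They begin at -12 and 6 relative to the start of that window's transcript, where 1 is the first transcribed base. The upstream Ctsa window (chr2:164832622-164832921), which covers the start of the leading transcript Ctsa-202 at 164832873, holds no match. In Ctsd they lay at -245 and -98 relative to the RefSeq start (142387827), the one at -98 being the longer form, and in Ctsl at -236. The leading transcript Ctsd-202 starts further upstream, at 142388038, so the match at -98 lies within Ctsd-202. The Ctsl window (chr13:64370471-64370770) was placed on a RefSeq start at 64370520. The leading transcript Ctsl-201 starts further downstream, at 64370306, which that window does not cover. Each match is shown in capitals within 30 bases, on the strand of the gene.
Ctsa, chr2:164833757-164833786, plus strand: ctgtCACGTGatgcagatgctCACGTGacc
Ctsd, chr7:142387908-142387937, minus strand: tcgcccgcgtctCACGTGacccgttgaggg
Ctsd, chr7:142388048-142388077, minus strand: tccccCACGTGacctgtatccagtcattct
Ctsl, chr13:64370739-64370768, minus strand: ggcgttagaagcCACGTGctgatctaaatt

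Ctss, Ctsz and Ctsc, which are among the abundant members, have no such letters in their windows, nor does Ctsk. All 5 genes of the regulator list were detected at 1 TPM or more in both libraries, against 44.4% of protein-coding genes. Mcoln1, the lysosomal calcium channel upstream of TFEB, had 48.3 and 62.4 TPM in replicates 1 and 2, Tfe3 had 27.8 and 31.1 TPM, and Tfec had 19.3 and 37.1 TPM. Tfeb was the lowest of the 5 in these tables, with 17.4 TPM in replicate 1 and 9.91 TPM in replicate 2. In the second quantification it had 24.3 and 19.6 TPM, above Tfe3 with 12.1 and 18.1 TPM, so the order of the regulators depended on the quantification.

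All 12 genes of the sorting and maturation list were detected at 1 TPM or more in both libraries, against 44.4% of protein-coding genes. Besides genes that carry or mature lysosomal enzymes, the list holds other lysosomal genes such as Psap, Lamp1, Lamp2, Neu1 and Glb1. Psap, the precursor of the saposins, which Ctsd is known to cleave, was above every cathepsin, with 4129 TPM in replicate 1 and 2807 TPM in replicate 2. Lgmn, the asparaginyl endopeptidase that cuts cathepsins into their chains, had 712 and 412 TPM. Lamp1, a membrane protein of lysosomes, had 390 and 258 TPM. The lowest was Sort1, an alternative sorting receptor, with 1.31 TPM in replicate 1 and 2.03 TPM in replicate 2, and 0.512 and 1.01 TPM in the second quantification.

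Genes of the protease inhibitor list, which holds cystatins, stefins, serpins, Ctla2a and Ctla2b, were lower in sum than the cysteine cathepsins. Of these, 6 of 14 reached 1 TPM in both libraries, close to the share of 44.4% over protein-coding genes. All 14 together had 197 and 149 TPM in replicates 1 and 2, against 3982 and 2528 TPM for the 7 cysteine cathepsins. Cstb, the cytosolic stefin B, had 51.8 and 54.9 TPM in replicates 1 and 2. Cst3, the secreted cystatin C, had 60.1 and 31.3 TPM, and Serpinb6a, an intracellular serine protease inhibitor, had 42.6 and 38.4 TPM. The stefin A genes Stfa1, Stfa2 and Stfa3, near-identical copies whose counts are uncertain, had no count. A count of 0 allows up to 3 counts, or 0.312 TPM in replicate 1 and 0.349 TPM in replicate 2 for Stfa1.

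All 12 genes of the antigen processing and endosomal sensing list reached 1 TPM in both libraries, against 44.4% of protein-coding genes. Ctss, Ctsl and other cathepsins act in these processes. The highest were Unc93b1, the chaperone of endosomal Toll-like receptors, with 353 TPM in replicate 1 and 259 TPM in replicate 2, Cd74, the invariant chain, with 198 and 144 TPM, and Tlr7, a receptor for single-stranded RNA, with 62.4 and 45.6 TPM. The lowest was Ifi30, which bears the name of the lysosomal thiol reductase, with 7.44 and 6.66 TPM. This entry is annotated as a processed transcript rather than as protein-coding. Of the 13 other genes of the cathepsin name, 2 reached 1 TPM in both libraries, against 44.4% of protein-coding genes. Ctso had 19.6 and 16.7 TPM in replicates 1 and 2, Ctsf had 1.98 and 1.11 TPM, and Ctsw, best known from lymphocytes, had 0.92 and 1.82 TPM. The 9 genes of the placental cluster on chromosome 13, a family of close copies, had no count in either gene-level table. In the second quantification Ctsq had 0.152 and 0.304 TPM and Cts8 0.153 and 0.142 TPM, and the other 7 had 0.

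**Figure D5:**
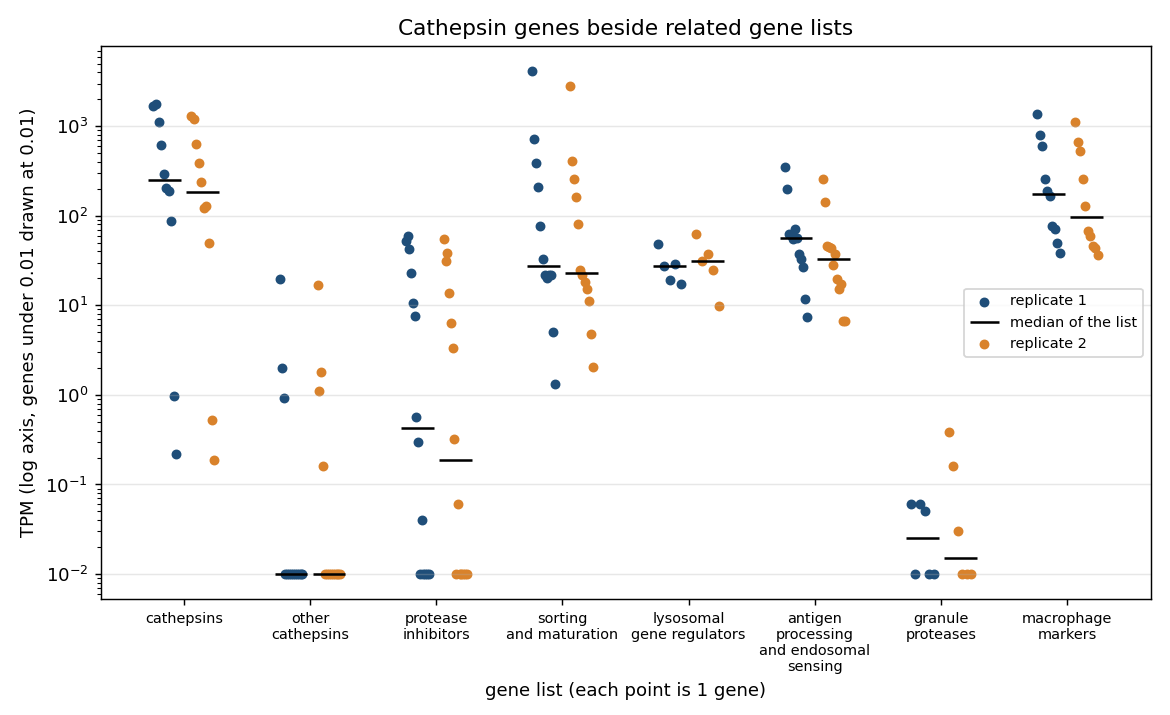
TPM on a log axis of single genes in 8 lists, with replicate 1 left of replicate 2, a line at each list's median, and values under 0.01 TPM drawn at 0.01. Of the 10 cathepsin genes, 8 lie near or above 50 TPM, the granule proteases below 1 TPM, and 9 of the other cathepsins at 0 in the gene-level tables.

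The protein-coding genes nearest in level to the top members, by distance in log2(TPM + 0.1) over the 2 libraries, included other lysosomal genes. Ctsb and Ctsd were nearest to each other, at a distance of 0.14. Next to Ctsd came Gpnmb, a membrane glycoprotein of lysosomes, with 1692 TPM in replicate 1 and 1508 TPM in replicate 2. Next to Ctsb came H2-D1, a class I histocompatibility gene, with 1830 and 1077 TPM. Ctss was nearest to Rsad2, the interferon-induced antiviral enzyme viperin, with 1087 TPM in replicate 1 and 677 TPM in replicate 2, and then to Grn, the progranulin gene, with 1119 and 744 TPM. Over 2 libraries this likeness describes a similar level and nothing beyond it.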

How the data were processed

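The 2 libraries of 1 group were analysed. Per the notes deposited with the files, the authors' gene and transcript tables (expected count and TPM) derive from transcriptome alignments, and their second transcript table (estimated count and TPM), called the second quantification, was made from the reads directly, on mm10 with GENCODE mouse release 21. The sources used here name no program, version or use of strand. Entries naming no annotated gene (1.01% of expected counts in replicate 1, 0.336% in replicate 2) were left out. Expected counts were rounded. Ratios used edgeR 4.0.16 TMM factors from the 14892 genes that filterByExpr kept and a prior count of 0.5, and were tested on simulated data. DESeq2 1.42.0 gave alternative scaling. A gene was called apart when its mean count reached 100 and its absolute log2 ratio reached 1. Intervals are exact (Clopper-Pearson) and, like the floor of 3 counts, cover counting error only. Besides the 10 cathepsin genes, the 3 highest and the lowest gene of each related list, the 2 nearest genes of the 3 highest members and each member's leading transcript were to be named. Further overlapping genes, transcripts, complex partners and single markers were named after their values were seen. The members and lists were chosen with earlier results of these data known.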

Additional observations from a re-analysis of the deposited data

How the results depend on the processing

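Levels on the TPM scale moved with the quantification, and their broad order did not. The median level over the 10 cathepsin genes was 121 TPM in the second quantification, 762 TPM when the gene-level tables were rescaled over protein-coding genes and 688 TPM when the second quantification was, the last chosen after seeing the data. In the second quantification Ctsb, at 821 TPM, had a higher mean than Ctsd, at 665 TPM. The median retained-intron share over cathepsin genes was 34.1% in the second quantification, 3.27% as a share of expected counts and 7.69% with all 8 abundant genes included, the last chosen after seeing the data. As a share of expected counts, the median over the 3107 protein-coding genes was 18.0%. Of the single genes' log2 ratios, all 10 kept their sign under DESeq2 size factors, library totals, no filter, a prior count of 2 and the second quantification, and 0 cathepsin genes were apart under each of them. The sum of Ctsd and Gm49369 was likewise added after seeing the data. No paired analysis was possible because the series has 1 group. Depth limits Ctsk and Ctse, which rest on at most 36 counts.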
